A study of Drosophila melanogaster with 5 samples.

Results

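The cytosolic ribosome is built from a small and a large subunit, and its protein genes were followed here in RNA from whole adult fly ovaries. Members were taken by symbol: genes whose name starts with RpS or RpL and a number or P, and sta, the fly gene for the small-subunit protein SA. Paralog pairs with known tissue-biased copies, 10 genes in all and among them RpL22 and RpL22-like, were left out. This gave 83 of the 14094 genes in the table, 31 of the small and 52 of the large subunit, and 81 of them had enough counts to be tested. Ovaries of Drosophila melanogaster were dissected 1 to 3 days after eclosion. The knockout group, labelled BEAF 32-AB KO, has 2 libraries, and the control group, labelled as wild type with the genotype nosGAL4;MKRS/TM6, has 3. BEAF-32 is an insulator protein found at many gene starts, and nosGAL4 expresses the GAL4 activator in the germline. MKRS and TM6 are balancers of chromosome 3, and MKRS as usually kept carries a Minute allele, a dominant mutation of the class that mostly falls in ribosomal protein genes. The knockout label names neither nosGAL4 nor the balancers, so the differences between the stocks cannot be told apart from that of BEAF-32. Whether each library had its own flies is not stated in the labels, and p-values therefore measure only the spread between these libraries, which may be partly technical.

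Ribosomal proteins are needed in equal numbers, 1 copy of nearly every kind in each ribosome, and cells hold the output of their genes in balance. The small subunit reads the mRNA, and the large subunit joins amino acids and guides the new chain out through its exit tunnel. Flies with 1 working copy of such a gene often show the Minute phenotype of slow growth and thin bristles, and many of these stocks have poor female fertility. In the ovary, ribosome production is high in germline stem cells, and nurse cells later load the egg with maternal ribosomes.

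The libraries held 38820176 and 47805964 estimated counts for the knockout and 41105107, 8448850 and 10388643 for controls 1, 2 and 3, so that control 1 was as deep as the knockout and controls 2 and 3 were shallow. CPM values are counts per 1000000 of the column total. BEAF-32 was at 50.2 and 52.8 CPM in knockout 1 and 2 and at 84.9, 136 and 144 CPM in controls 1, 2 and 3 (log2 fold change -1.19, SE 0.26, adjusted p = 0.0157 by edgeR). Germline transcripts were present in both genotypes: of 10 germline markers, among them vas and osk, 1 was called higher and 3 lower, and their summed level was 2523 to 2861 CPM in the knockout and 2808 to 3814 CPM in the control. Markers of several somatic cell types differed between the genotypes. The 6 chorion genes of late follicle cells were all called lower and summed to 2.99 and 7.26 CPM in the knockout and 8668 to 17268 CPM in the control. Ovary muscle markers were called higher for 8 of 9 and summed to 3217 and 3369 CPM in the knockout against 319 to 537 CPM in the control. Follicle cell markers were called higher for 7 of 8, with sums of 1049.5 and 1102 CPM against 198 to 291 CPM. Of 6 hemocyte markers 4 were tested and 3 called higher, with sums of 535 and 557 CPM against 168 to 205 CPM. The hemocyte genes He and NimC1 were at or near 0 in every library. Of 5 fat body markers 4 were tested and 2 called higher, with sums of 108 and 179.9 CPM against 31.8 to 53.3 CPM. The part of these cell types in the ribosomal protein values was not tested. In bulk ovary RNA, fewer cells of a type and less RNA per cell cannot be told apart.

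Ribosomal protein transcripts took a larger share of the RNA in the knockout. The 83 genes together made up 11.1% and 13.2% of all counts in the knockout libraries and 6.25%, 7.61% and 7.86% in controls 1, 2 and 3, and the genotypes did not overlap. The mean share was 12.1% ± 1.54 (SD, n = 2) in the knockout and 7.24% ± 0.865 (SD, n = 3) in the control, a ratio of 1.68. Against control 1 alone, the deep control, the ratio was 1.94, and against the mean of controls 2 and 3 it was 1.57. The same 83 genes were at 13.3% and 15.0% in the knockout and 7.47% to 9.5% in the control when genes with rRNA in their symbol were left out of the totals.

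The share was higher for both subunits. Small-subunit genes took 4.24% and 4.95% of the counts in the knockout and 2.38%, 2.93% and 3.01% in the control, a ratio of means of 1.66. Large-subunit genes took 6.82% and 8.28% in the knockout and 3.87%, 4.68% and 4.85% in the control, a ratio of 1.69. The summed CPM of small-subunit genes divided by that of large-subunit genes was 0.621 and 0.598 in the knockout and 0.617, 0.625 and 0.62 in the control. Knockout 1 lay inside the range of the controls and knockout 2 below it. The mean ratio was 0.609 ± 0.0161 (SD, n = 2) and 0.62 ± 0.00397 (SD, n = 3), so the difference of -0.011 was smaller than the spread between the knockout libraries. Its sign turned when counts were divided by coding length (0.00815) or when medians of members were taken in place of sums (0.0318). Without the member of highest mean CPM in each subunit, the ratio was 0.59 and 0.569 in the knockout and 0.595, 0.623 and 0.618 in the control, a difference of -0.0327 with both knockout libraries below all controls. The direction of the ratio thus depended on how the members were summed.

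**Figure D1:**
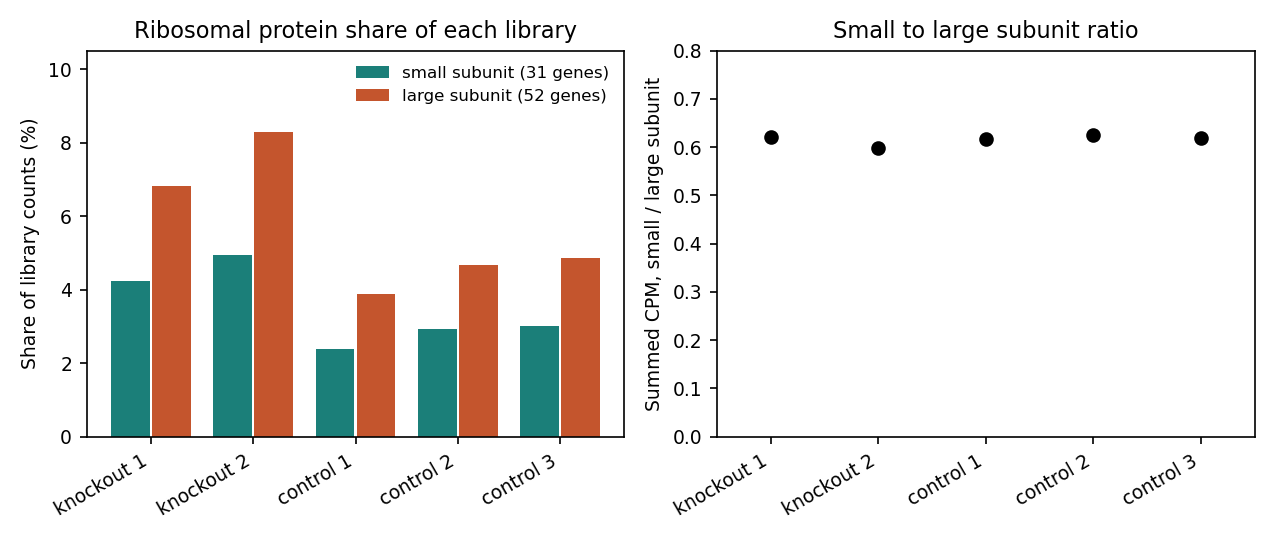
Left, the share of each library's counts that fell on small-subunit and large-subunit genes, in percent, as 1 bar per library and subunit. Right, the summed CPM of small-subunit genes over that of large-subunit genes in each library, as points. Shares are higher in the knockout libraries for both subunits, while the ratios lie between 0.598 and 0.625 in all 5 libraries.

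Gene by gene, 50 of the 81 tested members were called higher in the knockout and none lower (edgeR's quasi-likelihood test, adjusted p under 0.05). Among all 9241 tested genes, 22.7% were called higher and 18.7% lower. The direction turned when libraries were scaled on follicle cell and ovary muscle genes, where 6828 of these 9241 genes were called lower. The 50 higher calls were 19 of 30 tested small-subunit genes (63.3%) and 31 of 51 tested large-subunit genes (60.8%). The median log2 fold change was 0.86 for the small and 0.83 for the large subunit, against 0.11 for all tested genes. Its lower and upper quartiles were 0.53 and 1.0 in the small and 0.45 and 1.06 in the large subunit. In 65 of the 81 members both knockout libraries lay above all controls, and in none below, where 37.6% of all tested genes had the knockout libraries on top. Of the other 31 tested members, 29 had a fold change above 0 and 2, RpL38 and RpL29, were at -0.01 and -0.02. RpL35 was the last member inside the threshold (adjusted p = 0.0441) and RpL37a the first outside (adjusted p = 0.0505). RpL35 stood at 1029 and 1161 CPM in knockout 1 and 2 and at 602, 829 and 786 CPM in controls 1, 2 and 3, a log2 fold change of 0.61.

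The direction is relative to the scaling of the libraries. Scaling factors were also taken from 20 germline genes, of which 6 were themselves called higher and 3 lower, with a median of 0.29. This list differs from the 10 germline markers above, whose median was -0.2 and on which no scaling was run. With the factors from the 20 genes, 17 of 81 tested members were called higher and 0 lower. Of all 9241 tested genes, 1614 were then called higher and 2399 lower. Medians were then 0.48 and 0.44 for the small and large subunit and -0.24 for all tested genes. A further scaling used 15 follicle cell and ovary muscle genes, which themselves were mostly higher in the knockout. Then 80 members, all tested ones but RpL37b, were called lower, as were 6828 of all 9241 tested genes. Medians were -1.81 and -1.85 for the small and large subunit beside -2.54 for all tested genes. The number of calls also depended on the libraries used. Leaving out control 2 left 26 members called higher and 0 lower, beside 1507 higher and 1374 lower of all 9166 genes tested then. Leaving out knockout 1 gave medians of 0.88 and 0.83 for the small and large subunit, beside 0.05 for all tested genes. Leaving out knockout 2 gave 0.76 and 0.7, beside 0.08. Depth class as a term sets controls 2 and 3 apart and leaves control 1 to be compared with the knockout. All 81 tested members were then called higher, among them RpL37b, which had no counts in control 1. Of all 9241 tested genes, 2669 were then called higher and 2384 lower.

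**Figure D2:**
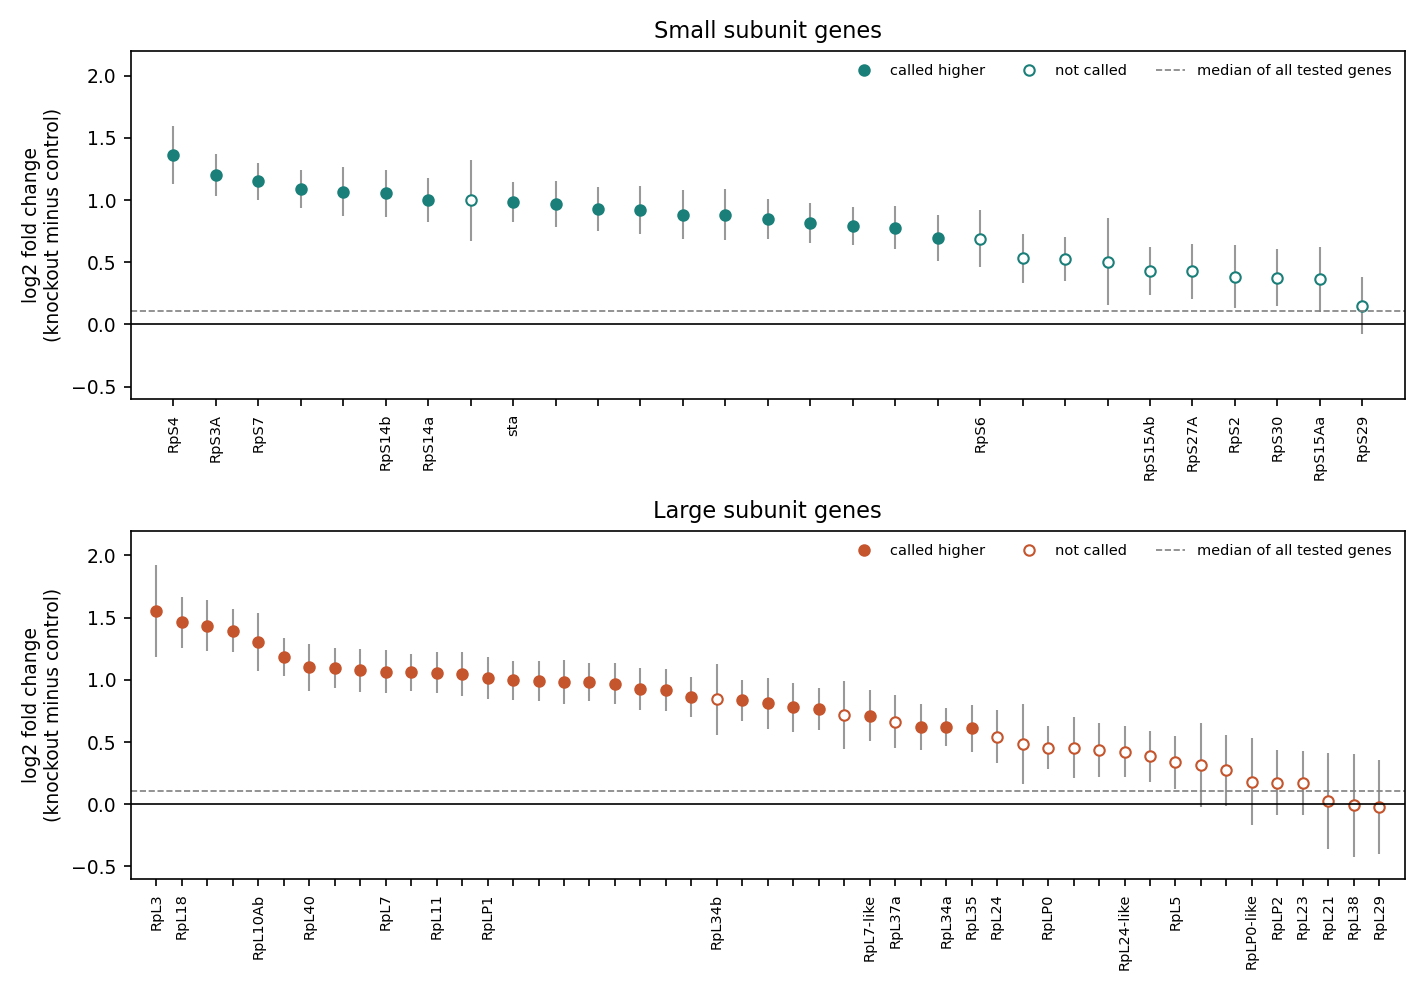
Log2 fold change, knockout minus control, of tested members with a mean over 1 CPM, ordered by size within the small subunit (top) and the large subunit (bottom). Bars are standard errors from edgeR, filled points are genes called higher, open points genes not called, and the dashed line is the median of all tested genes at 0.11. RpL37b, at under 1 CPM, and 2 members that are not reported are not drawn, and the axis gives symbols for the members chosen for description by rule. Both subunits fall off gradually from above 1 to near 0. Their direction turns with scaling on follicle cell and ovary muscle genes, as does the median of all tested genes (-2.54).

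Among the small-subunit genes with the highest fold changes were RpS4, RpS3A and RpS7, which encode proteins of the 40S particle. RpS3A, the only member on chromosome 4, was called higher, at 3602 and 4181 CPM in knockout 1 and 2 and at 1920.1, 1631 and 1663 CPM in controls 1, 2 and 3 (log2 fold change 1.2, SE 0.17, adjusted p = 0.00397). RpS7 (FBgn0039757, chromosome 3R, 30206447 to 30209020, minus strand, dm6) was at 2457 and 2624 CPM in knockout 1 and 2 and at 1171, 1230.2 and 1137 CPM in controls 1, 2 and 3 (log2 fold change 1.15, SE 0.15, adjusted p = 0.00292). Every knockout value of these genes lay above every control value. RpS4 was at 1918 and 2711 CPM in knockout 1 and 2 and at 1122, 857 and 777 CPM in controls 1, 2 and 3 (log2 fold change 1.36, SE 0.23, adjusted p = 0.00739). For RpS4 control 1 was the highest control and lay well below knockout 1. The laminin receptor-related protein SA, encoded by sta, sits near the mRNA exit of the small subunit. It was at 2229 and 2874 CPM in knockout 1 and 2 and at 1352, 1338 and 1285 CPM in controls 1, 2 and 3 (log2 fold change 0.98, SE 0.16, adjusted p = 0.00642), with the 3 controls close together.

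RpS6, whose protein is the substrate of S6 kinase downstream of the growth regulator TOR, was at 1717 and 2217 CPM in knockout 1 and 2 and at 932, 1408 and 1421 CPM in controls 1, 2 and 3 and was not called (log2 fold change 0.69, SE 0.23, adjusted p = 0.0573), although its libraries did not overlap. The small-subunit genes with the lowest fold changes were RpS29, RpS15Aa, RpS30 and RpS2. RpS29 (FBgn0261599, chromosome 3R, 9778042 to 9779528, plus strand, dm6), a short zinc-binding protein of the small subunit, was at 2286 and 2073 CPM in knockout 1 and 2 and at 1540.5, 2218 and 2337 CPM in controls 1, 2 and 3 (log2 fold change 0.15, SE 0.23, adjusted p = 0.619). Knockout 1 lay between controls 2 and 3, knockout 2 below both, and control 1 was the lowest. RpS15Aa was at 1993 and 2234 CPM in knockout 1 and 2 and at 1164, 1840.5 and 2070.5 CPM in controls 1, 2 and 3 (log2 fold change 0.36, SE 0.26, adjusted p = 0.303). RpS30, made as a fusion with a ubiquitin-like domain, was at 959.6 and 1104 CPM in knockout 1 and 2 and at 603, 924 and 932 CPM in controls 1, 2 and 3 (log2 fold change 0.38, SE 0.23, adjusted p = 0.231). RpS2, known as string of pearls for its female-sterile mutant, was at 1206 and 1914 CPM in knockout 1 and 2 and at 941, 1356 and 1375 CPM in controls 1, 2 and 3 (log2 fold change 0.38, SE 0.25, adjusted p = 0.266). In each of the 4 genes control 1 was the lowest of all 5 libraries, and RpS30 was the only 1 of them whose genotypes did not overlap.

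In the large subunit, RpL37b aside (below 1 CPM in every library), RpL3, RpL18 and RpL4 were among the genes with the highest fold changes. The protein of RpL3 reaches to the peptidyl transferase centre, and that of RpL4 lines the exit tunnel. RpL3 (FBgn0020910, chromosome 3R, 11221894 to 11225173, plus strand, dm6) was at 2898 and 3857 CPM in knockout 1 and 2 and at 1773, 919 and 828 CPM in controls 1, 2 and 3 (log2 fold change 1.55, SE 0.37, adjusted p = 0.0211). RpL18 was at 1074 and 1661 CPM in knockout 1 and 2 and at 525, 537 and 461 CPM in controls 1, 2 and 3 (log2 fold change 1.46, SE 0.21, adjusted p = 0.00397). For RpL3, control 1 stood above controls 2 and 3, and for RpL18 the controls were close together. RpL4, named after its values were seen, was at 2598 and 3335 CPM in knockout 1 and 2 and at 1327, 1042 and 1002 CPM in controls 1, 2 and 3 (log2 fold change 1.43, SE 0.20, adjusted p = 0.00408).

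The lowest fold changes in the large subunit were those of RpL29, RpL38, RpL21 and RpL23. RpL21 (FBgn0032987, chromosome 2L, 22247111 to 22247875, minus strand, dm6) was at 2278 and 2184 CPM in knockout 1 and 2 and at 1186, 2723 and 2917 CPM in controls 1, 2 and 3 (log2 fold change 0.02, SE 0.39, adjusted p = 0.967). RpL38 was at 612 and 859 CPM in knockout 1 and 2 and at 389, 844 and 1049.8 CPM in controls 1, 2 and 3 (log2 fold change -0.01, SE 0.41, adjusted p = 0.987). RpL29 was at 335 and 457 CPM in knockout 1 and 2 and at 223, 499 and 519.6 CPM in controls 1, 2 and 3 (log2 fold change -0.02, SE 0.38, adjusted p = 0.965). For these 3 genes the knockout libraries lay above control 1 and, with 1 exception (knockout 2 for RpL38), below controls 2 and 3, so the genotypes overlapped. RpL23 was at 1919 and 1882 CPM in knockout 1 and 2 and at 1227, 1901 and 2117 CPM in controls 1, 2 and 3 (log2 fold change 0.17, SE 0.26, adjusted p = 0.622), with the same order of control 1 below all other libraries.

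The stalk of the large subunit, which recruits translation factors, was not uniform. RpLP1 was called higher, at 2003 and 2347 CPM in knockout 1 and 2 and at 955, 1187 and 1175 CPM in controls 1, 2 and 3 (log2 fold change 1.02, SE 0.17, adjusted p = 0.00661). Its partner RpLP2 was at 1305 and 1467 CPM in knockout 1 and 2 and at 869, 1419.8 and 1517 CPM in controls 1, 2 and 3 and was not called (log2 fold change 0.17, SE 0.26, adjusted p = 0.621). The stalk base RpLP0 was at 2317 and 2777 CPM in knockout 1 and 2 and at 1626, 2103 and 2003 CPM in controls 1, 2 and 3 and was not called either (log2 fold change 0.46, SE 0.18, adjusted p = 0.0841), though its libraries did not overlap. The difference between stalk genes was not tested, and for RpLP2, but not RpLP1, controls 2 and 3 were at the level of the knockout.

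RpL5 and RpL11 bind 5S rRNA as a particle before they join the large subunit. RpL11 was called higher, at 1266 and 1553 CPM in knockout 1 and 2 and at 675, 654 and 754 CPM in controls 1, 2 and 3 (log2 fold change 1.06, SE 0.17, adjusted p = 0.00561). RpL5 was at 2498 and 3132 CPM in knockout 1 and 2 and at 1775, 2518 and 2587 CPM in controls 1, 2 and 3 and was not called (log2 fold change 0.34, SE 0.21, adjusted p = 0.251), with knockout 1 below controls 2 and 3. RpL40 and RpS27A are made as fusions with ubiquitin, so their transcripts also feed the ubiquitin pool. RpL40 was called higher, at 1031 and 1389 CPM in knockout 1 and 2 and at 644, 552 and 536 CPM in controls 1, 2 and 3 (log2 fold change 1.10, SE 0.19, adjusted p = 0.00718). RpS27A was at 1733 and 2249.9 CPM in knockout 1 and 2 and at 1169.5, 1732 and 1670.0 CPM in controls 1, 2 and 3 (log2 fold change 0.43, SE 0.22, adjusted p = 0.167) and was not called, with knockout 1 almost level with control 2.

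Several members come as duplicated genes, for which the counting could have split shared reads, so their single levels are uncertain. RpS14a and RpS14b lie side by side on the X chromosome and encode the same protein. RpS14a was at 493 and 619 CPM in knockout 1 and 2 and at 314, 277 and 264 CPM in controls 1, 2 and 3 (log2 fold change 1.00, SE 0.17, adjusted p = 0.00783). RpS14b was at 359 and 475 CPM in knockout 1 and 2 and at 203, 234 and 181 CPM in controls 1, 2 and 3 (log2 fold change 1.05, SE 0.19, adjusted p = 0.00829). Both were called higher by about the same amount. In 3 other pairs 1 copy dominated. RpS15Ab, against RpS15Aa above, was at 36.2 and 44.9 CPM in knockout 1 and 2 and at 25.8, 37.0 and 30.2 CPM in controls 1, 2 and 3 (log2 fold change 0.43, SE 0.19, adjusted p = 0.121). RpL10Ab, of the L1 stalk, was called higher, at 1042 and 1599 CPM in knockout 1 and 2 and at 626, 559 and 451 CPM in controls 1, 2 and 3 (log2 fold change 1.31, SE 0.23, adjusted p = 0.00842). Its copy RpL10Aa had counts in knockout 2 only, at 0.0209 CPM, and was not tested. The minor copies of these pairs, whose coding lengths are alike, were thus far below the major ones in both genotypes, and the same held for the RpL37 pair. RpL37a, a different gene from RpL37A, was at 1339 and 1546 CPM in knockout 1 and 2 and at 716, 1038 and 1059.5 CPM in controls 1, 2 and 3 (log2 fold change 0.66, SE 0.21, adjusted p = 0.0505). RpL37b was at 0.464 and 0.356 CPM in knockout 1 and 2 and at 0, 0 and 0.289 CPM in controls 1, 2 and 3 (log2 fold change 2.51, SE 1.57, adjusted p = 0.244). With so few reads its fold change is not precise, and controls 1 and 2 had none. RpL34b was at 581 and 768 CPM in knockout 1 and 2 and at 254, 448 and 458 CPM in controls 1, 2 and 3 (log2 fold change 0.84, SE 0.28, adjusted p = 0.0585). RpL34a was at 180.3 and 209 CPM in knockout 1 and 2 and at 121, 138 and 132 CPM in controls 1, 2 and 3 (log2 fold change 0.62, SE 0.15, adjusted p = 0.0232). In this fit RpL34a was called and RpL34b was not, while RpL34b had the larger fold change and its controls lay farther apart. The contrast in calls depended on the fit: DESeq2 (adjusted p = 0.0242) and limma-voom (adjusted p = 0.044) also called RpL34b, and with the replicate block RpL34b was called (adjusted p = 0.0285) and RpL34a was not (adjusted p = 0.163). RpL34a was also not called with germline scaling (adjusted p = 0.389) or with the coding length trend removed (adjusted p = 0.157). RpS28-like was at 0 in all 5 libraries.

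The 3 tested members with -like in their symbol are named for likeness to a ribosomal protein, and their yeast counterparts act in ribosome assembly. RpL7-like was called higher, at 172 and 213 CPM in knockout 1 and 2 and at 94.9, 142 and 126 CPM in controls 1, 2 and 3 (log2 fold change 0.71, SE 0.21, adjusted p = 0.0382). This call was lost with column totals (adjusted p = 0.0565), germline scaling (adjusted p = 0.365), the replicate block (adjusted p = 0.0871), the coding length trend removed (adjusted p = 0.0594), and when any single library other than control 1 was left out (adjusted p from 0.071 to 0.226). RpL7 itself was called higher too, at 1862 and 2448 CPM in knockout 1 and 2 and at 978, 1054 and 1137 CPM in controls 1, 2 and 3 (log2 fold change 1.07, SE 0.17, adjusted p = 0.006). The genotypes overlapped for neither gene. RpL24-like was at 210.4 and 219 CPM in knockout 1 and 2 and at 131, 171 and 193 CPM in controls 1, 2 and 3 (log2 fold change 0.42, SE 0.20, adjusted p = 0.147). RpL24 was at 1061 and 1193 CPM in knockout 1 and 2 and at 614, 851 and 926 CPM in controls 1, 2 and 3 (log2 fold change 0.54, SE 0.21, adjusted p = 0.0872). RpLP0-like was at 100.4 and 99.6 CPM in knockout 1 and 2 and at 51.2, 119.8 and 104 CPM in controls 1, 2 and 3 (log2 fold change 0.18, SE 0.35, adjusted p = 0.698). All 3 were far below their namesakes in CPM per kb of coding length in every library.

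The paralogs left out by the rule moved in the same direction, with 8 of 9 tested called higher (88.9%, beside 22.7% of all tested genes). Their median was 1.29, and their log2 fold changes ranged widely, from 0.59 to 13.42. RpL22-like and RpS10a, the germline-biased copies of their pairs, were called higher from almost no counts in the control. Such low control levels did not hold for all of the left-out paralogs. RpL22-like was at 36.6 and 56.7 CPM in the knockout libraries and at 0 in every control. RpS10a was at 30.7 and 40.4 CPM in knockout 1 and 2 and at 0.0973, 0.355 and 0 CPM in controls 1, 2 and 3. RpS28b was at 1556 and 1611 CPM in knockout 1 and 2 and at 785, 1140.0 and 1176 CPM in controls 1, 2 and 3 and was not called (log2 fold change 0.66, SE 0.21, adjusted p = 0.0527). With these paralogs added, the small to large ratio was 0.693 and 0.668 in the knockout and 0.68, 0.691 and 0.689 in the control, again with overlap.

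Levels between members can be compared only per length. Divided by coding length in kilobases, the mean level in the control ranged over the 80 members with at least 1 CPM from 79.6 CPM per kb for RpS15Ab to 16590.0 CPM per kb for RpL41, the gene for the shortest protein among the members. RpS29, RpL21 and RpS15Aa followed at 12090.0, 4769 and 4338 CPM per kb. The standard deviation over members of log2 CPM per kb was 1.18 and 1.09 for the small subunit in the knockout and 1.13, 1.18 and 1.28 in the control. For the large subunit it was 1.14 and 1.16 in the knockout and 1.16, 1.19 and 1.26 in the control. The spread of levels among members was thus of similar size in all libraries, while proteins of a ribosome are equal in number. Duplicated and -like genes make up the low end and widen the spread. After RpS15Ab came RpLP0-like, RpL7-like, RpL34a and RpL24-like, at 119, 157, 268 and 288 CPM per kb in the control. Coding length leaves out the untranslated regions, which make up much of the shortest transcripts, so the per-length level of genes such as RpL41 is overstated.

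The differences among members varied with the control library used and with coding length. Set against control 1, which matches the knockout in depth, all 80 members with at least 1 CPM were higher in the knockout. The log2 ratio of the knockout mean to control 1 had a median of 0.98, with lower and upper quartiles of 0.82 and 1.11 and a range from 0.5 for RpS29 to 1.63 for RpS27. Set against the mean of controls 2 and 3, 73 of the same 80 were higher, with a median of 0.71 and a range from -0.36 to 1.95. The standard deviation over members was 0.21 against control 1 and 0.48 against controls 2 and 3. These are ratios of 1 or 2 control libraries with no test, and both share the knockout libraries.

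The ratio of control 1 to controls 2 and 3 itself ran with coding length. Over the 9 members with a coding length under 300 nucleotides the median log2 ratio of control 1 to controls 2 and 3 was -0.93, and over the 3 members of 900 nucleotides or more it was 0.38. Pearson's r with log2 coding length was 0.49 and Spearman's rho 0.44 across the 80 members, and 0.5 and 0.57 across 7829 other tested genes. Within the small subunit they were 0.38 and 0.32, and within the large subunit 0.53 and 0.49. With log2 transcript length, untranslated regions included, they were lower, at 0.3 and 0.29 across the 80 members. These are correlations across genes of the same libraries, and genes are not independent replicates. For the knockout against control 1, r with log2 coding length was 0.11 and rho 0.11 over the members, and against controls 2 and 3 they were 0.48 and 0.40. Of the 9 shortest members 1 was called higher (11.1%), beside 17.5% of 229 other tested genes under 300 nucleotides with at least 1 CPM. The median ratio of these 9 members to control 1 was 0.99, against 0.04 to controls 2 and 3. The 3 longest, RpL3, RpL4 and RpLP0, had medians of 0.93 and 1.54. The part of depth, library preparation and fly stock in this difference between controls was not tested, since the labels name no batch. A smooth trend with coding length, estimated on all other genes, was also taken out of each library. Then 41 members were called higher and 1 lower (RpL41), beside 1741 higher and 3442 lower of all 9241 tested genes. Medians were 0.52 and 0.53 for the small and large subunit and -0.34 for all tested genes. This alternative and the comparison with control 1 alone were chosen after the data were seen.

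**Figure D3:**
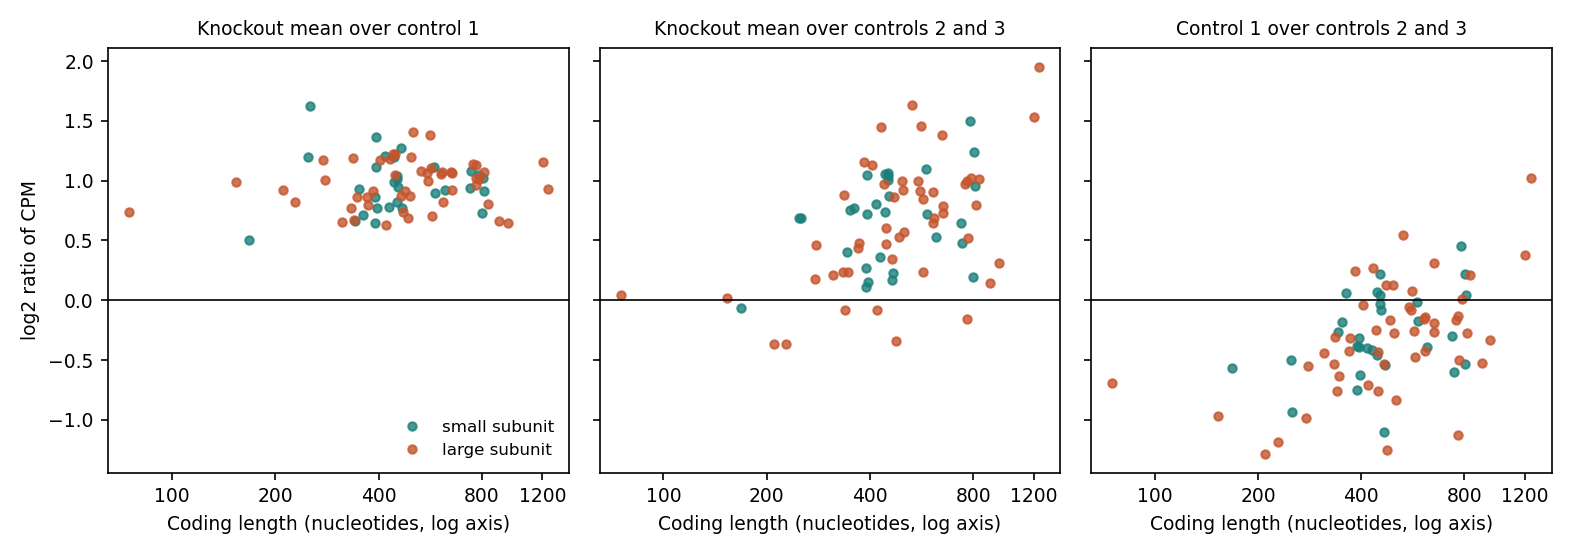
Log2 ratio of CPM plotted against coding length in nucleotides (log axis) for the 80 members with at least 1 CPM, 1 point per gene and colour by subunit. The panels show the knockout mean over control 1, the knockout mean over controls 2 and 3, and control 1 over controls 2 and 3. Points in the first panel lie in a flat band between 0.5 and 1.63, while those in the other panels tend to climb with coding length, with wide scatter.

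By position, the calls were denser on chromosome 3, the chromosome that carries the balancers in the control. There 26 of 32 tested members (81.2%) were called higher, with a median of 0.94, against 24 of 49 (49.0%) on the other chromosomes, with a median of 0.69. Other tested genes were called higher in 20.9% of cases on chromosome 3 and in 23.4% elsewhere. On arm 3L, 13 of 14 were called, all but RpLP0, and on 3R 13 of 18. The counts were 8 of 18 on 2L, 9 of 20 on 2R and 6 of 10 on X. Against control 1 the arms were close: the median log2 ratio was 1.04 on chromosome 3 and 0.93 elsewhere. Against controls 2 and 3 the medians were 0.80 and 0.47. Members on chromosome 3 were also longer, with a median coding length of 568 nucleotides against 450 elsewhere. The difference between arms was not tested, and the part of the balancers and of coding length in it was not tested.

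**Figure D4:**
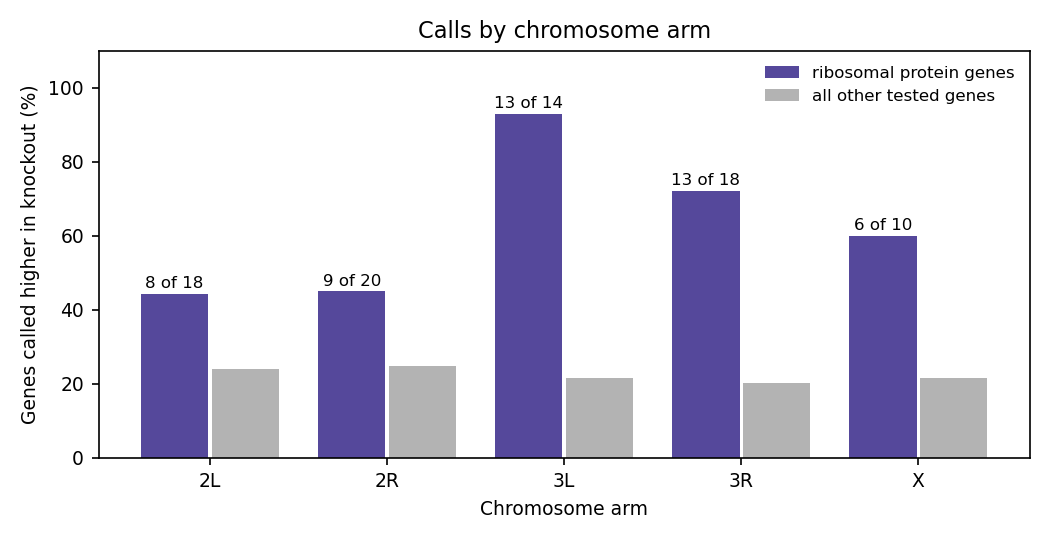
Percent of tested genes called higher in the knockout on each of 5 chromosome arms, as bars that start at 0, for ribosomal protein genes and for all other tested genes. Numbers above the bars give the called and tested ribosomal protein genes. The ribosomal protein share is highest on 3L, at 92.9%, while the share of other genes lies between 20.3% and 24.7%. RpS3A, the single member on chromosome 4, was called higher and is not drawn. Calls turn to lower with scaling on follicle cell and ovary muscle genes, where 6828 of all 9241 tested genes were called lower.

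Many members start near another gene that runs the other way, an arrangement near which BEAF-32 is known to bind often. Of the 81 tested members, 50 (61.7%) had a protein-coding gene that started within 1000 bases on the opposite strand and ran the other way, compared with 41.9% of all tested protein-coding genes. Of these 50, 36 were called higher (median 0.90), and of the 31 without such a neighbour 14 were (median 0.72). Of 48 tested neighbours, 7 (14.6%) were called higher and 12 (25%) lower, beside 22.7% and 18.7% of all tested genes, with a median of -0.08. In the 34 pairs whose member was called higher, the neighbour was called higher in 5 and lower in 8. RpL13 starts 84 bases from Dref, a transcription factor that binds promoters of growth genes, and both were called higher (0.83 and 0.76). RpL9 starts 631 bases from the nucleoporin gene Nup154, and RpL9 was called higher (0.97) while Nup154 was not called (0.22, adjusted p = 0.726). RpS18 starts 295 bases from plu, a regulator of early embryonic cycles, and RpS18 was called higher (0.93) while plu was called lower (-3.38). These neighbours were chosen after their values were seen.

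The spans of 27 members hold annotated snoRNA genes on the same strand, 60 in all, and RpS7 holds the most with 7. Whether each lies in an intron was not checked. Of these 27 hosts 20 were called higher (74.1%), with a median of 0.97. Of the 54 other tested members 30 were (55.6%), with a median of 0.81. The share was 61.7% over all tested members and 22.7% over all tested genes. Hosts were also longer, with a median coding length of 585 nucleotides against 447. A protein-coding gene on the opposite strand overlaps 19 members, among them RpL12 and RpL39, which overlap each other. The kit keeps strand, but the strand setting of the counting is not given in the sources used here, so reads of such pairs may not be separable. Of the 19, 10 were called higher (52.6%), and of the 62 others tested 40 were (64.5%). Neither the difference by snoRNA nor that by overlap was tested.

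Other genes of the translation apparatus were called higher in smaller shares than the 61.7% of the ribosomal protein genes, and the share over all tested genes was 22.7% higher and 18.7% lower. Of 49 tested translation factors, 15 were called higher (30.6%) and 1 lower, with a median of 0.44. The elongation factor eEF1alpha1, which brings tRNAs to the ribosome, was at 18823 and 19575 CPM in knockout 1 and 2 and at 14453, 8755 and 7702 CPM in controls 1, 2 and 3 and was not called (log2 fold change 0.94, SE 0.31, adjusted p = 0.0537). The called factors with the smallest p were the minor forms eIF4E3, eEF1alpha2 and eIF4E6, with fold changes of 6.09, 2.92 and 5.33 and means under 10 CPM. Of 44 ribosome biogenesis genes, 14 were called higher (31.8%) and 4 lower, with a median of 0.35. The rRNA methyltransferase fibrillarin, Fib, was at 283 and 352 CPM in knockout 1 and 2 and at 112, 129 and 128 CPM in controls 1, 2 and 3 (log2 fold change 1.41, SE 0.16, adjusted p = 0.00216). The assembly factors Nle and nclb changed by 1.34 and 1.32, and Nopp140, a nucleolar phosphoprotein, was not called (log2 fold change 0.94, SE 0.35, adjusted p = 0.075). The mitochondrial ribosome is a separate particle with its own proteins, and of its 73 genes 5 were called higher (6.85%) and 3 lower, with a median of -0.01. Named by the same rule, mRpL28 was called higher (0.83), mRpS23 lower (-1.02), and mRpS30 was not called (log2 fold change 0.11, SE 0.23, adjusted p = 0.714). The shares called differ between these lists and the cytosolic ribosomal proteins, and the difference was not tested.

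**Figure D5:**
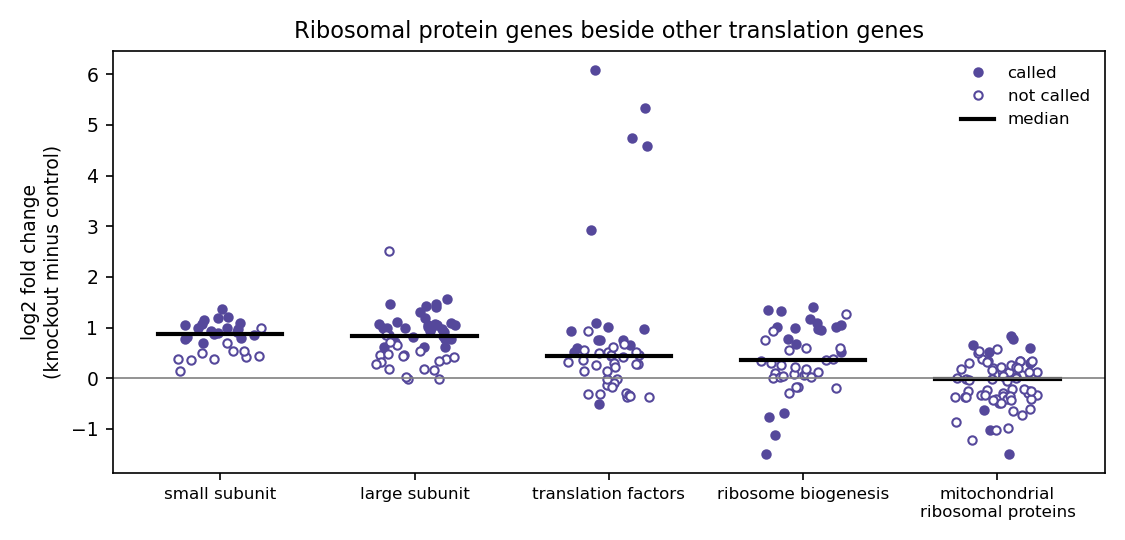
Log2 fold change, knockout minus control, of every tested gene in 5 lists, 1 point per gene with random horizontal spread, filled where called and open where not, with a bar at the median. Medians are 0.86 and 0.83 for the small and large subunit, 0.44 for translation factors, 0.35 for ribosome biogenesis genes and -0.01 for mitochondrial ribosomal proteins. Those of both subunits turn below 0 with scaling on follicle cell and ovary muscle genes, as does that of all tested genes (-2.54).

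The next list held 13 genes known to regulate ribosomal protein transcription, translation or the response to a shortage of ribosomal proteins. Of these, 5 were called higher (38.5%) and 2 lower (15.4%), beside 22.7% and 18.7% of all tested genes. Their median was 0.33. The 2 called lower are not among the genes with the smallest p described here. Xrp1, the transcription factor that drives the response to ribosomal protein mutations in flies, was at 528 and 441 CPM in knockout 1 and 2 and at 75.3, 29.9 and 24.4 CPM in controls 1, 2 and 3 (log2 fold change 3.52, SE 0.53, adjusted p = 0.00497). Thor, which restrains translation initiation by binding eIF4E, was at 115 and 126 CPM in knockout 1 and 2 and at 30.1, 25.1 and 19.6 CPM in controls 1, 2 and 3 (log2 fold change 2.31, SE 0.22, adjusted p = 0.00116). The ATF4 gene crc, a stress regulator, was at 729.9 and 817 CPM in knockout 1 and 2 and at 374, 453 and 428 CPM in controls 1, 2 and 3 (log2 fold change 0.93, SE 0.16, adjusted p = 0.0072). All knockout values of these 3 genes lay above all control values, and the Xrp1 controls were uneven, with control 1 highest. Myc, which promotes ribosome production, was at 354 and 474 CPM in knockout 1 and 2 and at 385, 388 and 335 CPM in controls 1, 2 and 3 and was not called (log2 fold change 0.20, SE 0.18, adjusted p = 0.399). Rack1, a scaffold protein bound to the small subunit, was at 2219 and 2721 CPM in knockout 1 and 2 and at 1449.5, 1464 and 1387 CPM in controls 1, 2 and 3 (log2 fold change 0.82, SE 0.15, adjusted p = 0.00992), and it was named after its values were seen.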

How the data were processed

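RNA from whole adult ovaries was sequenced in 5 libraries, 2 of the knockout and 3 of the control. Trizol extraction and a directional RNA-seq kit were used, per the labels' protocols. Salmon 1.2.1 and STAR 2.7.5b are named with FastQC 0.11.8, Trim Galore 0.6.6 and dm6, per the submitters' processing notes. Settings, annotation and strand setting are not given in the sources used here. The file the authors deposited holds estimated counts for each gene, not scaled, with 5.33% to 9.29% of values per library not whole. Duplicates are mentioned in the design text, but 3 controls carry labels and all were used.

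CPM was computed from the column totals. For tests, counts were rounded, filtered by filterByExpr (9241 genes left), scaled by TMM (factors 0.941 to 1.035) and fitted, knockout minus control with no covariate, by the quasi-likelihood test of edgeR 4.0.16 (glmQLFTest after a robust glmQLFit, R 4.3.3). Adjusted p-values are Benjamini-Hochberg over all tested genes, called under 0.05. The standard error is the size of the fold change over the square root of F. The biological coefficient of variation was 0.321. No p is given for sums or lists. Coordinates, coding lengths and neighbours came from the Ensembl BDGP6 annotation, which uses dm6 coordinates: 99.7% of identifiers and all 83 members were found. The members, lists and rules were chosen with earlier results of these data known. Named members were the 4 with the highest mean CPM and the 4 highest and 4 lowest in fold change of each subunit, those not tested, the stalk, 5S, ubiquitin-fusion and duplicated genes, sta, RpS6, and the members next to the threshold. A few genes that these rules name are not reported here. Per other list, up to 3 called genes with the smallest p and the uncalled one with the highest CPM were named. Genes with rRNA in their symbol took 11.7% to 17.3% of counts. The closest libraries, controls 2 and 3, differed beyond sampling noise (chi-square per degree of freedom 12.5). The fit was tested on simulated counts. Alternatives were other scalings, filters and tools (DESeq2 1.42.0, limma-voom 3.58.1), a replicate block, depth class as a term, thinning, the removal of rRNA genes and leaving out each library.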

Additional observations from a re-analysis of the deposited data

How the results depend on the processing

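Counts and medians of the members were within 1.5 times, or 1 SD, of those reported with DESeq2 size factors, column totals, both other filters, removal of rRNA genes, DESeq2 (58 members higher), limma-voom (55) and thinning (50). Of all 9241 tested genes, DESeq2 called 2456 higher and 2159 lower, and limma-voom 2580 and 1825. With thinning it was 1815 and 1693 of 8202. Germline scaling gave 17 higher (8 small, 9 large, medians 0.48 and 0.44), beside 1614 higher and 2399 lower of all 9241 tested genes. Scaling over follicle cell and ovary muscle genes gave 0 higher (0 small, 0 large) and 80 lower, with medians of -1.81 and -1.85. Of all 9241 tested genes it gave 6828 lower, and the shift follows from the rise of the scaling genes. Depth class as a term gave 81 higher (30 and 51), and control 1 alone, chosen later, 78 (50 large). With the coding length trend removed, also chosen later, 1 was lower, with medians of 0.52 and 0.53. With 1 library left out, the higher members numbered 7 to 59 (small 3 to 23, large 4 to 36), with 0 lower and medians from 0.76 to 0.88 (small) and 0.7 to 0.86 (large). Without control 1, 59 members were higher, beside 3352 higher and 2731 lower of all 8870 genes tested then. Without control 2 it was 26, beside 1507 and 1374 of 9166, and without control 3 it was 41, beside 1519 and 1427 of 9178. The lowest member counts came with either knockout library left out, where far fewer of all tested genes were called as well. The lone knockout library was then assumed to vary like the controls. The difference in the members' share, 4.91 percentage points, was 3.82 to 6.0 with 1 library left out. The difference in the small to large ratio (-0.011) was -0.0327 without the member of highest mean CPM in each subunit, 0.00815 per coding length, 0.0318 from medians, and -0.0224 to 0.000459 with 1 library left out. Except where stated, the cause of a change was not tested. Whether the replicate numbers pair the libraries could not be decided. The r across genes was 0.0577 and 0.0475 for numbers 1 and 2. With 2 knockout libraries their deviations from the mean mirror each other, so r for the swapped numbers was -0.0577 and -0.0475. With these numbers as a replicate block, in a fit without control 3, 40 members were called higher (15 small, 25 large) and 0 lower. Of all 9178 genes tested in that fit, 1511 were called higher and 1465 lower. Of the calls of named members, sign changes aside, 2 were lost with column totals, 7 with germline scaling, 1 with no filter, 3 with the replicate block, 3 with the coding length trend removed, and 0 to 13 with 1 library left out. Calls gained numbered 5 with DESeq2, 3 with limma-voom, 1 each with the replicate block and without rRNA genes, 5 without control 1 and 18 with depth class. Fold changes of named members changed sign as follows. With scaling over follicle cell and ovary muscle genes they were RpL10Ab -1.31, RpL11 -1.60, RpL18 -1.17, RpL21 -2.71, RpL23 -2.54, RpL24 -2.15, RpL24-like -2.27, RpL3 -1.02, RpL34a -2.04, RpL34b -1.85, RpL35 -2.07, RpL37a -2.03, RpL37b -0.09, RpL40 -1.53, RpL5 -2.35, RpL7 -1.59, RpL7-like -1.97, RpLP0 -2.22, RpLP0-like -2.54, RpLP1 -1.66, RpLP2 -2.53, RpS14a -1.63, RpS14b -1.59, RpS15Aa -2.34, RpS15Ab -2.24, RpS2 -2.28, RpS27A -2.25, RpS29 -2.55, RpS30 -2.32, RpS3A -1.44, RpS4 -1.25, RpS6 -1.99, RpS7 -1.51, sta -1.66. With column totals, these were RpL21 -0.03. With germline scaling, these were RpL21 -0.39, RpL23 -0.23, RpL5 -0.05, RpLP0-like -0.22, RpLP2 -0.22, RpS15Aa -0.03, RpS2 -0.008, RpS29 -0.23, RpS30 -0.01. With no filter, these were RpL21 -0.02. With thinning, these were RpL21 -0.00083. With the coding length trend removed, these were RpL21 -0.27, RpL23 -0.17, RpLP0-like -0.05, RpLP2 -0.21, RpS29 -0.48. With limma-voom, these were RpL29 0.07, RpL38 0.09. With the replicate block, these were RpL29 0.22, RpL38 0.33. With depth class as a term, these were RpL29 0.83, RpL38 0.93. With control 1 alone, these were RpL29 0.72, RpL38 0.81. With 1 library left out, the fold changes that turned ranged as follows: RpL21 -0.29 to 0.21, RpL23 -0.03 to 0.29, RpL29 -0.32 to 0.14, RpL38 -0.33 to 0.26, RpLP0-like -0.11 to 0.33, RpLP2 -0.04 to 0.28, RpS29 -0.03 to 0.28. Depth limits the members with the fewest counts: RpL37b was under 1 CPM in every library, and RpL10Aa and RpS28-like could not be tested.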
